A study of Mus musculus with 57 samples.

Results

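The circadian clock genes described here are 10 of the 52853 genes counted in mouse adipose tissue: Arntl, Clock, Npas2, Per1, Per2, Per3, Cry1, Nr1d1, Nr1d2 and Dbp. They were taken by gene symbol from the 3 count tables of the series, and each symbol was found once in every table. The mice were males on the C57BL/6J background, either wild-type (WT) or homozygous for the R707W change in Mfn2 (KI), a protein of the mitochondrial outer membrane that serves mitochondrial fusion. The knock-in line came from 1 founder made by genome editing, carries the change in every cell, and was compared with WT littermates housed in the same cages. From 5 weeks of age mice were given chow or a high-fat diet (HFD, 45% of energy as fat) for 6 months. Polyadenylated RNA was sequenced from inguinal white adipose tissue (WAT) on HFD (8 WT and 8 KI mice), inguinal WAT on chow (7 WT and 6 KI mice) and brown adipose tissue (BAT) on HFD (6 WT and 6 KI mice). Mice were fasted for 6 hr before they were killed. The clock time of killing is not given in the sources used here, so a difference in collection time and a difference in clock gene expression cannot be told apart for any comparison below.

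The molecular clock is a feedback loop found in nearly every cell. Arntl (also called Bmal1) pairs with Clock, or with its relative Npas2, and the pair binds E-box sequences and switches on the Period genes, Cry1, Nr1d1, Nr1d2 and Dbp. The Period and Cryptochrome proteins return to the nucleus and block the pair, while the nuclear receptors encoded by Nr1d1 and Nr1d2 (Rev-erb alpha and beta) repress Arntl through sites known as RORE. Dbp encodes a transcription factor that acts on D-box sequences, among them those of the Period genes. In rodent fat, as in liver, the transcripts of Arntl and Dbp peak at opposite phases of the day, and in this tissue the clock is known for timing lipid storage and release.

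The binding motifs of the loop are visible in RefSeq promoter windows of GRCm38.p6, which run from 250 bases before to 50 bases after an annotated start. Windows were found for 9 of the 10 genes, 13 windows in all, and Per2 had none. The windows were searched on both strands for the E-box CACGTG, the D-box TTATGNAA and the RORE (the half-site AGGTNA right after AAAGT), whose matches in these genes did not overlap each other. Of all 32851 promoter windows, 7.15% held this E-box, 3.38% this D-box and 0.0609% this RORE. The sites are shown because they are the sequences through which the genes below are known to act on each other, with the motif in capitals and each read 5′ to 3′ on the gene's strand.
Per3 (minus strand, chr4:151044796-151044885, both D-boxes): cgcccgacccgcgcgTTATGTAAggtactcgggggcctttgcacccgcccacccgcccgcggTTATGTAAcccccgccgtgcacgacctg
Per1 D-box (plus strand, chr11:69098914-69098943): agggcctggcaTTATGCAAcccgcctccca
Per1 E-box (plus strand, chr11:69098771-69098800): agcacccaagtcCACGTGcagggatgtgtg
Cry1 E-box (minus strand, chr10:85185097-85185126): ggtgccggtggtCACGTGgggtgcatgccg
Arntl first RORE (plus strand, chr7:113207492-113207521): attggtcggAAAGTAGGTTAgtggtgcgac
Arntl second RORE (plus strand, chr7:113207528-113207557): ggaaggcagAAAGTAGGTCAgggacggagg
These letters were not found in the windows of Clock, Npas2, Dbp, Nr1d1 and Nr1d2, which says only that they are not in those windows. A match describes the letters and was not tested for binding.

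In the GRCm38 annotation Arntl spans 113207465 to 113314126 on chromosome 7 and Clock 76209868 to 76304792 on chromosome 5, with pseudogenes or antisense entries inside both that had at most 18 counts in any library. Npas2 spans 39193731 to 39363236 and Per2 91415982 to 91459324 on chromosome 1. Per1 lies at 69095217 to 69109960 on chromosome 11, Cry1 at 85131700 to 85185064 on chromosome 10 and Nr1d2 at 18204054 to 18239127 on chromosome 14, and these, like Per2, overlap no other annotated gene. Per3 lies at 151003652 to 151044665 on chromosome 4, wholly inside Camta1 on the same strand, and Dbp at 45705088 to 45710203 on chromosome 7, where it meets Sphk2.

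Levels between genes were compared as CPM (counts scaled to a common library total) per kilobase of the gene models in the deposited tables. Nr1d1 and Dbp stood highest in all 6 groups, followed by Per1 and Nr1d2, while Arntl and Npas2 stood lowest. In WT mice on HFD the inguinal means were 77.2 ± 11.4 for Nr1d1, 44.3 ± 8.89 for Dbp and 25.2 ± 4.55 for Per1 (CPM per kilobase, SD, n = 8). At the other end of the order Clock had 3.14 ± 0.287, Arntl 0.642 ± 0.171 and Npas2 0.149 ± 0.0630 in the same mice. The first places changed between groups. Dbp came before Nr1d1 in chow-fed KI mice (127 ± 39.7 and 123 ± 35.6, n = 6) and in BAT of KI mice (82.7 ± 12.5 and 79.0 ± 13.6, n = 6), in both cases by less than the SD. Per2, Per3 and Cry1 lay between Nr1d2 and Clock in every group. Over all 41 libraries the highest Arntl level was 1.16 CPM per kilobase, while the lowest level of Dbp was 25.1 and that of Nr1d1 55.0 CPM per kilobase.

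**Figure D1:**
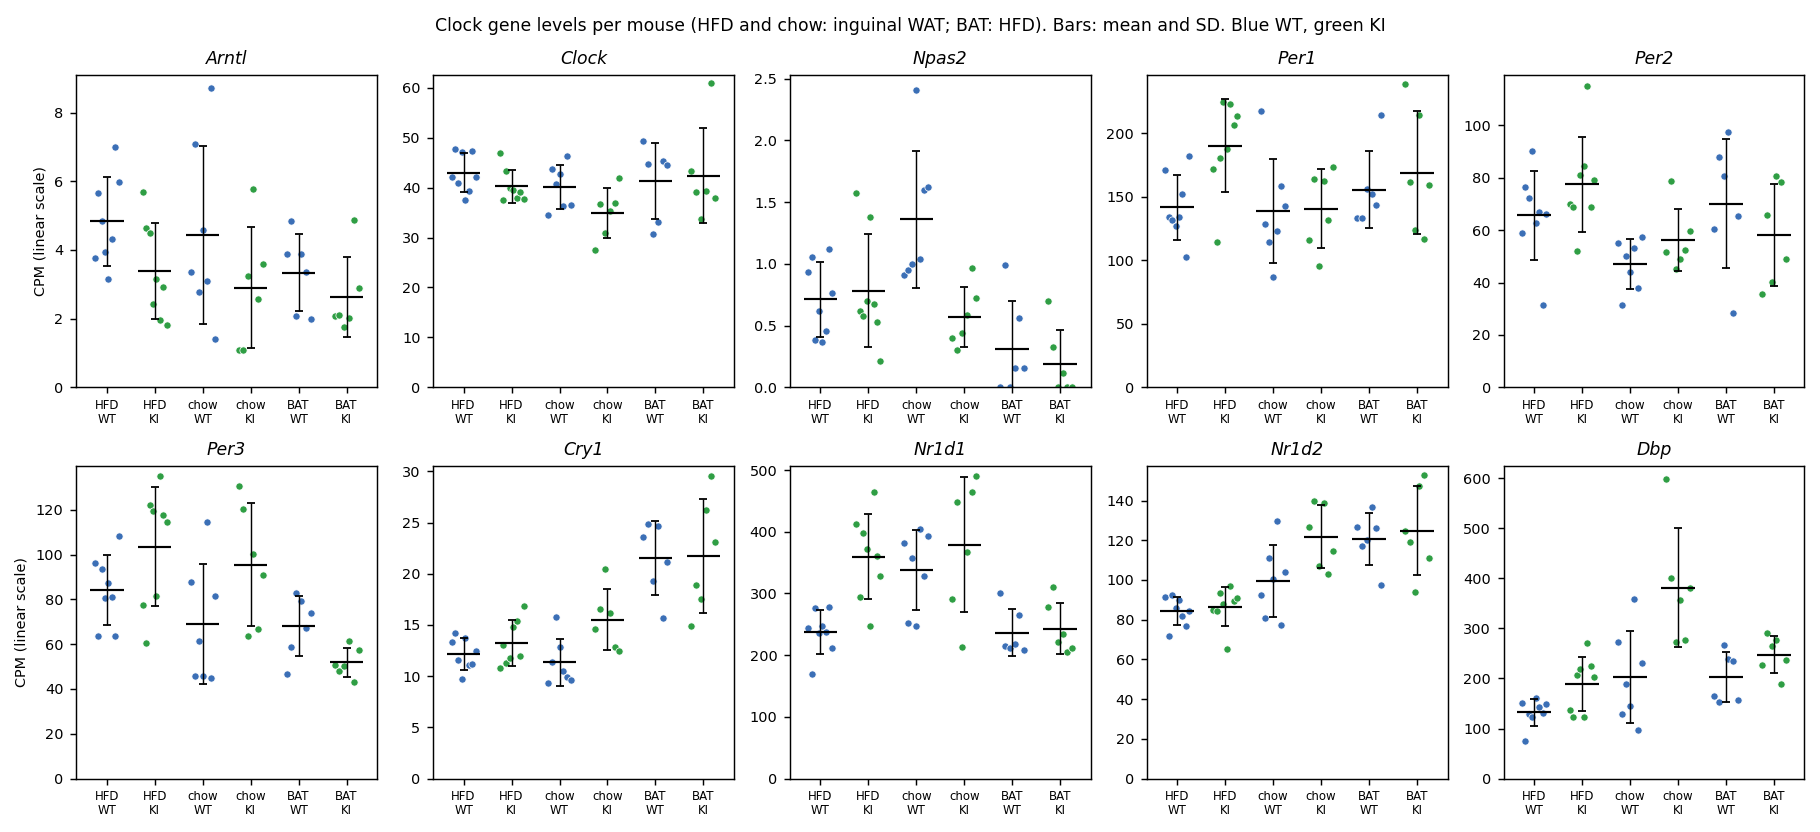
Levels of the 10 clock genes in every mouse, in CPM on a linear axis from 0, with 1 point per mouse (blue WT, green KI) and bars for the group mean and SD. For Nr1d1 in inguinal WAT on HFD 7 of 8 KI mice lie above every WT mouse, and Cry1 is higher in BAT than in inguinal WAT on HFD.

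Depth set the precision of the lowest genes. Total counts per mouse ran from 17572752 to 25680411 for inguinal WAT on HFD, from 8668279 to 11720458 on chow and from 8042591 to 10522554 in BAT. Arntl had 69 to 212 counts in WT mice on HFD but 11 to 59 in chow-fed KI mice. Npas2 had 0 to 9 counts in BAT and was not tested there between genotypes. The tissues matched their labels: the 7 brown adipocyte markers summed to 9280 CPM or more in every BAT library and to at most 517 CPM in any inguinal library, and the 6 adipocyte markers summed to 6849 to 13460 CPM over all libraries. The edited gene Mfn2 had 130 to 195 CPM in WT and 154 to 241 CPM in KI mice on HFD, 116 to 201.5 and 188 to 253 CPM on chow, and 346 to 379.6 and 356 to 567 CPM in BAT. It was not called between genotypes (edgeR adjusted p = 0.0114, 0.0789 and 0.113), and a count does not show a changed codon. Some inguinal libraries held transcripts of other tissue. The 6 lymphocyte markers summed to 376 and 190 CPM in WT mice 2 and 6 on HFD, 534 CPM in KI mouse 2 on HFD and 324 CPM in chow-fed KI mouse 3, and 5 skeletal muscle markers to 56690 CPM in chow-fed KI mouse 4. Calls of clock genes that changed without these 5 libraries are given with both values.

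In inguinal WAT on HFD, 1 of the 10 clock genes was called between genotypes, at an adjusted p below 0.01 from edgeR's quasi-likelihood test with adjustment over all 16471 genes tested. Over all those genes 11.5% were called, so the share among the clock genes was near the background. The called gene was Nr1d1, the repressor of Arntl, which rose 1.52-fold in KI mice. Per1 and Dbp were the next by p and missed the threshold. Over all 10 clock genes the median difference (log2) was 0.19, against 0.01 over all genes tested. An unadjusted p below 0.05 was found for 4 of the 10, and for 5426 of all 16471 genes.

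The activators were lower or level in KI mice without passing the test. Arntl had 3.16, 4.58 and 7.00 CPM (lowest, median and highest) in WT mice and 1.80, 3.04 and 5.69 CPM in KI mice. In this comparison 5 of 8 KI mice lay below every WT mouse and 2 WT mice above every KI mouse, and the rest overlapped. Its log2 fold change was -0.51 (standard error, SE, of 0.24, edgeR adjusted p = 0.142). Clock, its partner, was steadier, with 37.5, 42.1 and 47.7 CPM in WT against 37.5, 39.3 and 46.9 CPM in KI mice. The highest 3 mice and the lowest 1 were WT, at a log2 fold change of -0.09 (SE 0.07, edgeR adjusted p = 0.373). Npas2, which can stand in for Clock, had only 5 to 41 counts per mouse and a log2 fold change of 0.13 (SE 0.35).

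Among the repressors and outputs, Nr1d1 had 169, 241 and 278 CPM in WT mice and 248, 366 and 464 CPM in KI mice. The lowest KI mouse lay below the highest WT mice, and the other 7 KI mice lay above every WT mouse. Its log2 fold change was 0.61 (SE 0.12, edgeR adjusted p = 0.00122), and over 25 alternatives it ran from 0.54 to 0.67 with adjusted p from 2.33e-05 to 0.00436. Nr1d1 lies on chromosome 11 (98767932 to 98775333, minus strand) and overlaps the thyroid hormone receptor gene Thra, on the other strand, by 1075 bases. How reads were assigned by strand is not given, so reads in that stretch cannot be told apart between both genes. Thra moved the same way, with means of 148 ± 20.5 CPM in WT against 212 ± 32.8 CPM in KI mice (n = 8, SD), at a log2 fold change of 0.53 (SE 0.10, edgeR adjusted p = 0.00113). Its part in the value of Nr1d1 was not tested. Mitochondrial transcripts also differed, with 5.4% to 14.8% of counts in WT and 2.16% to 3.68% in KI mice on HFD, and without them the log2 fold change of Nr1d1 was 0.61 (edgeR adjusted p = 0.00130).

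Per1, which is also switched on by glucocorticoids and cAMP, had 102, 134 and 182 CPM in WT mice and 114, 197 and 225 CPM in KI mice. A single library decided its call. KI mouse 2, whose lymphocyte markers were the highest of all, was the lowest KI mouse for Per1, and 5 of the other KI mice lay above every WT mouse. WT mice 2 and 6, also with high lymphocyte markers, had 133.8 and 152.0 CPM of Per1 against a WT median of 133.9 CPM. The part of lymph node tissue in Per1 was not tested. The log2 fold change was 0.43 (SE 0.13, edgeR adjusted p = 0.0225), and 0.51 without that mouse (adjusted p = 0.00189). Without all 3 libraries on HFD with high lymphocyte markers it was also 0.51 (adjusted p = 0.00571), and 2 clock genes, Per1 and Nr1d1, were then called.

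Dbp, the D-box factor, had 75.3, 137 and 161 CPM in WT mice and 123, 204 and 270 CPM in KI mice. The 3 lowest KI mice overlapped the WT mice, and 5 of 8 lay above all of them, at a log2 fold change of 0.51 (SE 0.17, edgeR adjusted p = 0.0424). Dbp overlaps Sphk2, a sphingosine kinase gene on the other strand, by 737 bases, and Sphk2 had a log2 fold change of 0.25 (SE 0.14). Per3, a Period gene whose own promoter holds the pair of D-boxes printed above, had 63.5, 84.2 and 108 CPM in WT mice and 60.5, 116 and 135 CPM in KI mice. Its KI mice lay on both sides of the WT range, 5 above it and 1 below it, and the log2 fold change of 0.30 (SE 0.15) was not called. Per2, Cry1 and Nr1d2 had log2 fold changes of 0.25, 0.13 and 0.04 with standard errors of 0.17, 0.11 and 0.08, and their mice overlapped. No clock gene separated the genotypes without overlap on HFD, and over all genes tested 4.53% did.

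Inguinal WAT from chow-fed mice had 0 of 10 clock genes called by edgeR and 0 by DESeq2, while 4 of the 10 had an unadjusted p below 0.05 in edgeR. Of all 14629 genes tested, 3.27% were called and 3591 had an unadjusted p below 0.05. Over the 10 clock genes the median difference (log2) was 0.21, against -0.00011 over all genes tested. The widest differences were those of Dbp, at a higher level in KI mice, and Npas2, at a lower one. The 7 brown adipocyte markers summed to 20.4 to 70.2 CPM in chow-fed WT against 80.9 to 517 CPM in KI mice. Of these markers 4 were tested, with 3 positive and 1 negative log2 fold changes and 1 called higher by edgeR. The KI mice include mouse 4, whose library held 56690 CPM of muscle markers. The part of brown adipocyte markers and of muscle in the clock gene values was not tested.

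Dbp had 96.9, 189.8 and 359.6 CPM in chow-fed WT mice and 274, 369 and 599 CPM in KI mice. Of the WT mice, 6 of 7 lay below every KI mouse, and the remaining one (WT mouse 5) lay among the KI mice. The log2 fold change was 0.91 (SE 0.28, edgeR adjusted p = 0.0601). In a single fit of all 6 groups Dbp was called (log2 fold change 0.91, adjusted p = 0.00564), and without chow-fed KI mice 3 and 4, which held lymph node and muscle transcripts, its log2 fold change was 1.01 (adjusted p = 0.0699). Sphk2, its neighbour on the other strand, had 148 ± 59.2 CPM in WT against 241 ± 81.6 CPM in KI mice (n = 7 and n = 6, SD), a log2 fold change of 0.70 that was not called (edgeR adjusted p = 0.0968).

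Npas2 had 10 to 32 counts in chow-fed WT mice and 3 to 12 in KI mice, or 0.910, 1.04 and 2.41 CPM against 0.298, 0.513 and 0.963 CPM. Of the KI mice 5 of 6 lay below every WT mouse, and 5 of 7 WT mice above every KI mouse. Its log2 fold change was -1.24 (SE 0.34, edgeR adjusted p = 0.0364). At so few counts a difference rests on a handful of reads per mouse, and over 21 alternatives the adjusted p ran from 0.022 to 0.118. Arntl had 1.41, 3.37 and 8.72 CPM in WT against 1.09, 2.90 and 5.78 CPM in KI mice. The 2 lowest mice were KI and the 2 highest WT, with the rest mixed, at a log2 fold change of -0.61 (SE 0.45, edgeR adjusted p = 0.429). This value was not steady: it was -1.10 without chow-fed KI mice 3 and 4, the libraries with lymph node and muscle transcripts (adjusted p = 0.211), -0.93 without KI mouse 4 alone and -0.38 without WT mouse 6. Clock had 34.5, 40.8 and 46.3 CPM in WT against 27.6, 36.1 and 41.9 CPM in KI mice, a log2 fold change of -0.20 (SE 0.10) that was not called.

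Cry1, the Cryptochrome that closes the loop, had 9.28, 10.6 and 15.8 CPM in chow-fed WT mice and 12.5, 15.4 and 20.5 CPM in KI mice. Of the WT mice 5 of 7 lay below every KI mouse, at a log2 fold change of 0.45 (SE 0.15, edgeR adjusted p = 0.0844), or 0.30 without chow-fed KI mice 3 and 4 (adjusted p = 0.301). Nr1d2 had 77.1, 100.4 and 130 CPM against 103, 121 and 140.0 CPM, with a log2 fold change of 0.29 (SE 0.12). Nr1d1, the called gene on HFD, had 247, 358 and 404 CPM in chow-fed WT mice and 213, 407 and 491 CPM in KI mice, and Thra had a log2 fold change of 0.05 there. KI mice held both the highest and the lowest values of Nr1d1, and its log2 fold change was 0.16 (SE 0.19, edgeR adjusted p = 0.640), or 0.31 without chow-fed KI mice 3 and 4 (adjusted p = 0.315). Per1, Per2 and Per3 had log2 fold changes of 0.02, 0.26 and 0.47 with standard errors of 0.19, 0.15 and 0.25. No clock gene separated the genotypes without overlap on chow, where 4.22% of all genes tested did.

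In BAT, 0 of the 9 clock genes tested were called by edgeR and 0 by DESeq2, against 1.83% of the 13267 genes tested. Over all those genes 3242 had an unadjusted p below 0.05, and among the clock genes 1 did. That gene was Per3, with 46.8, 70.5 and 82.8 CPM in WT mice and 43.2, 50.5 and 61.6 CPM in KI mice. Of the WT mice 4 of 6 lay above every KI mouse and 1 KI mouse below every WT mouse, at a log2 fold change of -0.43 (SE 0.13, edgeR adjusted p = 0.0641). Per3 lies within the larger gene Camta1 on the same strand, and Camta1 had a log2 fold change of 0.07 in BAT. Arntl had 1.98, 3.62 and 4.85 CPM in WT against 1.74, 2.10 and 4.87 CPM in KI mice. Its mice overlapped, and the log2 fold change was -0.42 (SE 0.30, edgeR adjusted p = 0.416). Dbp had 152, 200.1 and 266 CPM against 188, 251 and 290.1 CPM, a log2 fold change of 0.26 (SE 0.15). Per2 had a log2 fold change of -0.31 (SE 0.28). Clock, Per1, Cry1, Nr1d1 and Nr1d2 lay between -0.03 and 0.09, with standard errors from 0.13 to 0.18, and the sign of each of these 5 turned under at least 1 alternative, a mouse left out included. None of the 9 separated the genotypes without overlap in BAT, where 3.69% of all genes tested did.

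**Figure D2:**
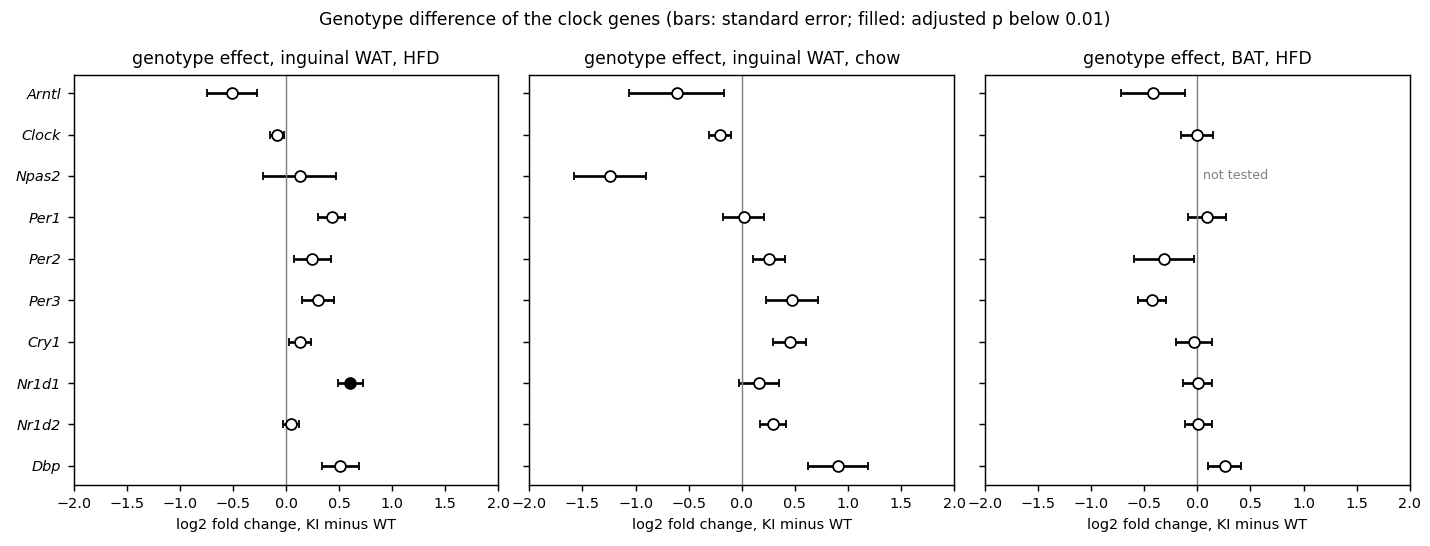
Log2 fold change of KI against WT mice for the 10 clock genes in the 3 comparisons, with bars for the standard error and filled points for genes called at an adjusted p below 0.01. Nr1d1 on HFD is the 1 filled point, and Npas2 was not tested in BAT.

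The genotype differences of these genes were then compared between diets and between depots, as interactions over all genes. With diet, 0 of 10 clock genes were called by edgeR or by DESeq2, and 0.845% of 17400 genes tested were called. An unadjusted p below 0.05 in edgeR was found for 2 clock genes, and for 2974 of all genes. The call of Nr1d1 on HFD and its absence on chow therefore do not show a difference between diets: its interaction was 0.46 on the log2 scale (SE 0.22, edgeR adjusted p = 0.289), or 0.26 without the 5 libraries with other tissue (adjusted p = 0.651). Npas2 had the widest interaction, 1.40 (SE 0.52, edgeR adjusted p = 0.143). With depot, 0 of 10 were called by either tool, and 2.82% of 17214 genes tested were called. An unadjusted p below 0.05 in edgeR was found for 3792 of all genes, and for 2 clock genes. These 2 were Per3, with a genotype difference that was -0.70 in BAT relative to inguinal WAT (SE 0.22, edgeR adjusted p = 0.0488), and Nr1d1, at -0.57 (SE 0.18, adjusted p = 0.0530).

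Other genes linked to the clock, not all of them parts of the loop described above, were followed in a list of 17. Of these 16 were tested in inguinal WAT on HFD. By edgeR 3 of the 16 were called higher in KI mice and none lower, while DESeq2 called 4, Timeless among them. In edgeR 11 had positive and 5 negative log2 fold changes. Over all 16 the median log2 fold change was 0.17, against 0.01 over all genes. On chow 3 of 16 were called higher by edgeR and none lower, with a median of 0.07 against -0.00011. DESeq2 called 4 on chow, and in edgeR 12 values were positive and 4 negative. In BAT 0 of 16 were called by edgeR and 1 by DESeq2, and the median was 0.01 against -0.01. An unadjusted p below 0.05 in edgeR was found for 8, 5 and 3 of the 16 on HFD, on chow and in BAT. Over all genes it was found for 5426 of 16471, 3591 of 14629 and 3242 of 13267. This list was drawn up with earlier results of these data known, and its counts stand beside backgrounds of 11.5%, 3.27% and 1.83%.

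Bhlhe40 and Bhlhe41 (Dec1 and Dec2), which bind E-boxes and repress the Arntl and Clock pair, rose in KI inguinal WAT on both diets. Bhlhe40 went from 26.5, 31.3 and 41.2 CPM (lowest, median and highest) in WT mice on HFD to 30.3, 61.9 and 72.6 CPM in KI mice. On chow it went from 19.1, 26.4 and 38.6 CPM to 32.0, 78.0 and 95.5 CPM. On both diets the ranges overlapped while the KI median lay above every WT mouse. The log2 fold changes were 0.88 on HFD and 1.40 on chow (SE 0.14 and 0.22, edgeR adjusted p = 0.000142 and 0.00130). Bhlhe41 had log2 fold changes of 0.62 and 0.96 (SE 0.14 and 0.20, edgeR adjusted p = 0.00363 and 0.00831). Without the 5 libraries with other tissue all 4 calls held (adjusted p from 0.000103 to 0.00748). Timeless, which DESeq2 had called with all libraries, was then called lower on HFD by edgeR too (log2 fold change -0.53, adjusted p = 0.000439). In BAT the same genes were not called, with log2 fold changes of -0.36 for Bhlhe40 and 0.89 for Bhlhe41 (edgeR adjusted p = 0.438 and 0.0329), and DESeq2 called Bhlhe41.

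Ciart, an E-box target that represses the same pair, rose on chow. It had 5.07, 6.98 and 17.4 CPM in chow-fed WT mice and 16.3, 24.0 and 37.6 CPM in KI mice. The lowest KI mouse lay just under the highest WT mouse, and the log2 fold change was 1.48 (SE 0.30, edgeR adjusted p = 0.00768). Without chow-fed KI mice 3 and 4 it was 1.71 (adjusted p = 0.00441). On HFD it was 0.67 (edgeR adjusted p = 0.0482), which was not called. Markers of other cell types moved beside these changes. Of 4 fibroblast markers 4, 3 and 4 had negative log2 fold changes on HFD, on chow and in BAT, and Dpt was the 1 called in each (-0.75, -1.28 and -1.37). They summed to 1717 to 2915 CPM in WT against 1199 to 2272 CPM in KI mice on HFD, and to 1447 to 4689 against 1408 to 2266 CPM on chow. Of 6 macrophage markers 5, 6 and 6 had negative values (1, 0 and 0 called by edgeR), with sums of 304.5 to 525.9 against 234 to 608 CPM on HFD and 207 to 597 against 192 to 309.7 CPM on chow. The 3 endothelial markers had negative values in all 3 comparisons and were not called. Of 6 adipocyte markers 4, 4 and 3 had positive values, and edgeR called 2 higher and 1 lower on HFD and 0 elsewhere. Of 7 brown adipocyte markers 4, 4 and 7 were tested, and 3, 3 and 6 had positive values. Of these 1 was called higher and 1 lower on HFD, 1 higher on chow and 0 in BAT. The part of all these markers was not tested, and in bulk tissue fewer cells of a type and less RNA per cell cannot be told apart.

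A further 5 lists hold genes that respond to the clock, to stress, to temperature or to feeding. Over all genes tested 11.5%, 3.27% and 1.83% were called between genotypes in the order HFD, chow and BAT, and 5426 of 16471, 3591 of 14629 and 3242 of 13267 had an unadjusted p below 0.05. Of 8 clock outputs shared by many organs, 0 were called by edgeR in any of the 3 comparisons, and DESeq2 called 1, 2 and 1. In edgeR 3, 4 and 3 had an unadjusted p below 0.05, with median log2 fold changes of 0.02, -0.01 and -0.22. Of 9 glucocorticoid-responsive genes (medians -0.14, 0.20 and -0.11), 1 was called by edgeR, Mt2 in BAT, a metallothionein with 55.4 ± 13.0 CPM in WT BAT against 126 ± 29.7 CPM (SD, n = 6 each) and a log2 fold change of 1.14 (edgeR adjusted p = 0.000906). DESeq2 called Klf9, Mt1 and Mt2 on HFD, Tsc22d3 on chow, and Mt1 and Mt2 in BAT, and 5, 1 and 3 of the 9 had an unadjusted p below 0.05 in edgeR. Of 8 temperature and heat-shock genes 0 were called by edgeR and 0 by DESeq2, with 0, 0 and 1 at an unadjusted p below 0.05 and medians of 0.08, -0.0036 and 0.08. Of 8 immediate early genes, which react quickly to stimuli and stress, 1 was called (medians -0.07, -0.06 and 0.17), Atf3 in BAT (log2 fold change 2.73, adjusted p = 0.00580 from edgeR). DESeq2 called the same gene alone, and 1, 3 and 1 of the 8 had an unadjusted p below 0.05 in edgeR. Of 8 fasting-responsive genes (medians 0.10, 0.02 and 0.07), Txnip, which restrains glucose uptake, rose on HFD (log2 fold change 0.51, adjusted p = 0.000407 from edgeR) and Pdk4, which restrains glucose oxidation, rose on chow (log2 fold change 1.21, adjusted p = 0.00995). Without chow-fed KI mice 3 and 4 the call of Pdk4 was lost (1.11, adjusted p = 0.0190). DESeq2 called Fgf21 in BAT besides these, and 3, 5 and 2 of the 8 had an unadjusted p below 0.05 in edgeR.

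Between diets the clock genes were compared in inguinal WAT within each genotype. Diet coincides with the deposited table, with depth and with any difference in collection date or time, and these cannot be told apart. The groups are those already used above, so the diet and genotype comparisons share mice. In WT mice 1 of 10 was called, against 28.3% of 17400 genes tested. It was Nr1d1, which had 169, 241 and 278 CPM on HFD and 247, 358 and 404 CPM on chow, lower on HFD by a log2 fold change of -0.53 (SE 0.16, edgeR adjusted p = 0.00689). The overlapping gene Thra had a log2 fold change of -0.70 (edgeR adjusted p = 0.000169), whose part was not tested. The call was not steady. It was lost in 18 of the 29 fits that left out 1 mouse, in which the log2 fold change ran from -0.59 to -0.45, and also without the 5 libraries with other tissue (adjusted p = 0.0159). Dbp and Nr1d2 were lower on HFD as well without being called (log2 fold changes -0.64 and -0.26, adjusted p = 0.0263 and 0.0329 from edgeR). Npas2 was also lower (-0.95, edgeR adjusted p = 0.0281), while Per2 was higher (0.46, edgeR adjusted p = 0.0351), neither being called. For Per2 7 of 8 mice on HFD lay above every chow-fed mouse and 1 below. No clock gene was free of overlap between diets in WT mice, where 12.2% of all genes were.

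In KI mice 2 of 10 were called between diets, against 30.7% of all genes tested. Dbp had 123, 204 and 270 CPM in KI mice on HFD and 274, 369 and 599 CPM on chow, and every mouse on HFD lay below every mouse on chow. Nr1d2 had 65.2, 88.7 and 97.0 CPM on HFD and 103, 121 and 140.0 CPM on chow, again with no overlap. Over all genes 17.0% had no overlap in this comparison. Dbp fell on HFD by 1.01 on the log2 scale (SE 0.24, edgeR adjusted p = 0.00106) and Nr1d2 by 0.49 (SE 0.10, adjusted p = 0.000267). Sphk2, which overlaps Dbp, had a log2 fold change of -0.90 (edgeR adjusted p = 0.000726), whose part was not tested. Without chow-fed KI mouse 1, the mouse with the highest Dbp of all 41, the adjusted p of Dbp was 0.0102 and 1 clock gene was called. Per1 and Per2 had positive log2 fold changes, 0.44 and 0.47, at adjusted p of 0.0368 and 0.0371 from edgeR. Arntl had 0.23 (SE 0.36) in KI mice, or 0.63 without the libraries with other tissue, and 0.10 (SE 0.34) in WT mice.

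Between depots on HFD, 3 of 10 clock genes were called in WT mice, against 55.9% of 17214 genes tested. Depot coincides with the deposited table, with depth and with mitochondrial transcripts (5.4% to 14.8% of counts in inguinal WAT and 14.6% to 18.4% in BAT of WT mice), whose part was not tested. The sources do not tell whether the depots were taken from shared animals. Cry1 had 15.7, 22.4 and 24.9 CPM in BAT and 9.76, 12.0 and 14.2 CPM in inguinal WAT, with every BAT value above every inguinal one. Nr1d2 had 97.5, 123 and 137 CPM in BAT and 71.8, 85.2 and 92.4 CPM in inguinal WAT, also with no overlap, and over all genes 39.3% had none. Dbp was higher in BAT as well, with 4 of 6 mice above every inguinal value. The log2 fold changes of Cry1, Nr1d2 and Dbp were 0.82, 0.51 and 0.61 (SE 0.14, 0.10 and 0.18, edgeR adjusted p = 6.30e-06, 3.83e-05 and 0.00337). The call of Dbp was lost in 3 of 28 fits that left out 1 mouse, and also without the filter, with at least 10 counts in every mouse and in 1 fit of all 6 groups (adjusted p = 0.0140, 0.0130 and 0.0146).

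In KI mice 4 of 10 were called between depots, against 59.1% of all genes tested, where the median log2 fold change over all genes was -0.12. Cry1 and Nr1d2 were higher in BAT again, by log2 fold changes of 0.70 and 0.52 (SE 0.14 and 0.10, edgeR adjusted p = 5.44e-05 and 3.40e-05). Per3 had 43.2, 50.5 and 61.6 CPM in BAT and 60.5, 116 and 135 CPM in inguinal WAT, so that 1 inguinal mouse reached into the BAT range. It fell by 1.01 on the log2 scale (SE 0.16, edgeR adjusted p = 1.99e-06), while Camta1, the gene around it, had a log2 fold change of 0.42 (edgeR adjusted p = 0.00345). Nr1d1 had 205, 227 and 310.3 CPM in BAT and 248, 366 and 464 CPM in inguinal WAT, with 6 of 8 inguinal mice above every BAT mouse, and fell by 0.58 (SE 0.13, edgeR adjusted p = 0.000268). No clock gene was free of overlap in this comparison, against 40.6% of all genes. Npas2 was close to the threshold (log2 fold change -2.01, SE 0.69, adjusted p = 0.0108 from edgeR) and was called by DESeq2. Its BAT levels rest on at most 5 counts in a KI mouse.

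**Figure D3:**
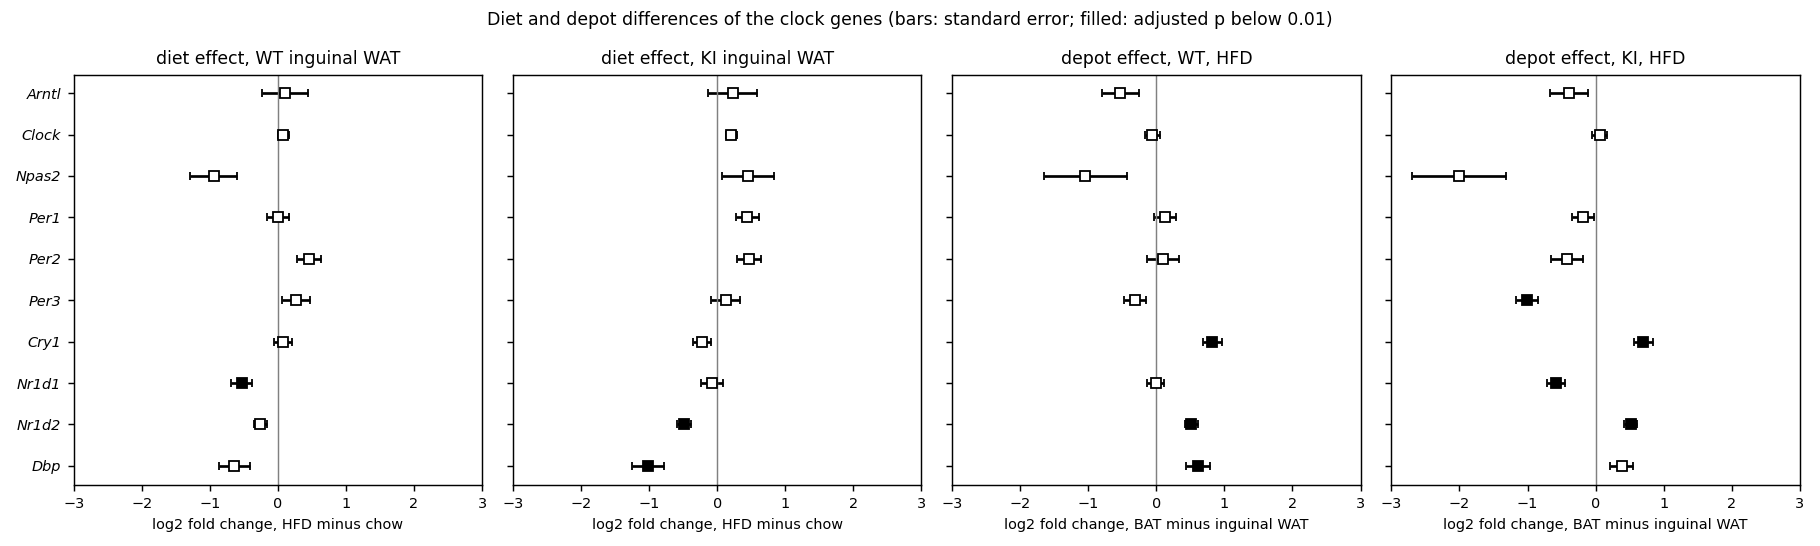
Log2 fold changes of the 10 clock genes between diets (HFD minus chow, inguinal WAT) and between depots (BAT minus inguinal WAT, HFD) within each genotype, with bars for the standard error and filled points for genes called at an adjusted p below 0.01. Dbp and Nr1d2 are filled on the negative side for diet in KI mice, and Cry1 and Nr1d2 on the positive side for depot in both genotypes.

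The balance of both arms in each mouse was described by the log2 ratio of Arntl to Dbp, which sets the activator against an output of opposite phase. Collection times are not given, so the ratio does not place a mouse in the cycle. The parts of low Arntl counts, of other tissue and of Sphk2 reads in it were not tested. The lowest, median and highest ratios on HFD were -5.61, -4.80 and -3.70 in WT mice and -7.02, -5.84 and -4.55 in KI mice. On chow they were -7.23, -6.04 and -3.45 in WT mice and -8.94, -6.68 and -5.92 in KI mice, and in BAT -6.91, -5.99 and -4.94 against -7.15, -6.85 and -5.24. KI mice had the lower mean in all 3 comparisons while the ranges overlapped. The differences of means, KI minus WT, were -1.04 on HFD, -1.59 on chow and -0.67 in BAT, where the SD within a group ran from 0.603 to 1.41. No test was made of the ratio, since its genes were picked with their values known. With the mean of each arm, over 9 genes, in place of these 2 genes the differences were -0.54, -1.01 and -0.22. The arms were Arntl, Clock and Npas2 against the Period genes, Nr1d1, Nr1d2 and Dbp, and Cry1 was left out. Npas2 weighs as much as Arntl and Clock in that mean, though it had 0 to 9 counts in BAT and 3 to 12 in chow-fed KI mice. Its part in these differences was not tested. The SDs of the Arntl to Dbp ratio in WT and KI mice were 0.60 and 0.93 on HFD, 1.41 and 1.205 on chow, and 0.69 and 0.72 in BAT. Its range from the lowest to the highest mouse of a group ran from 1.91 to 3.78. The widest was that of chow-fed WT mice, which spanned 3.78 on the log2 scale, with mouse 6 highest in Arntl (8.72 CPM) and lowest in Dbp (96.9 CPM).

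**Figure D4:**
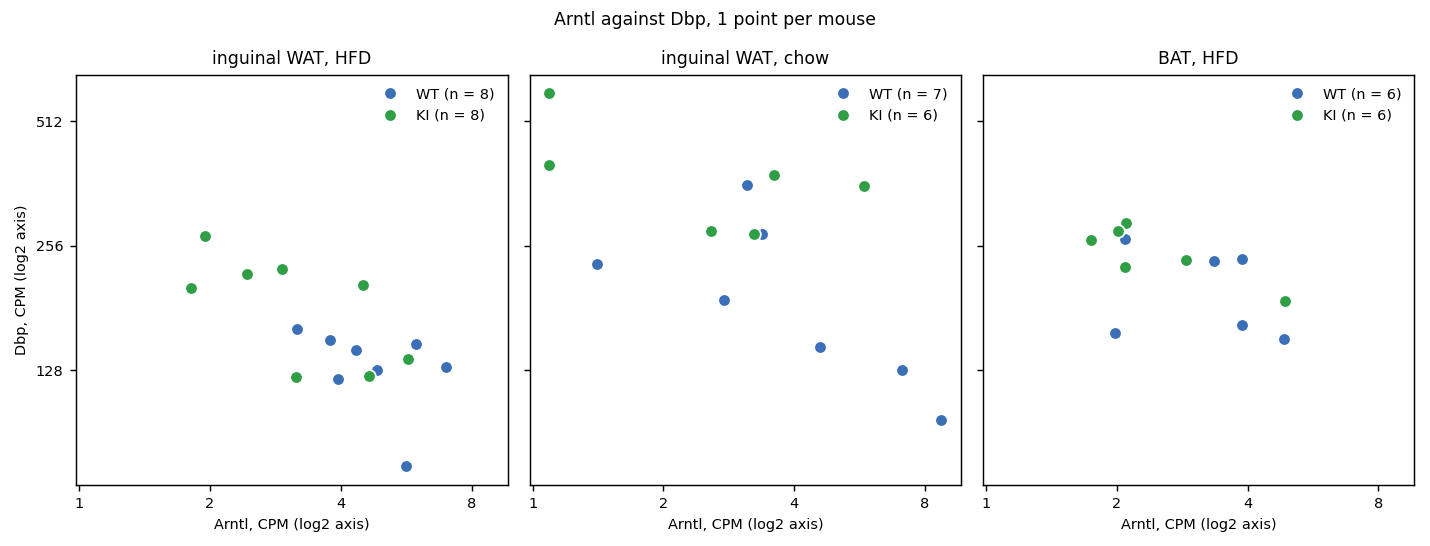
Arntl against Dbp in CPM, both on log2 axes, with 1 point per mouse and 1 panel per tissue and diet (blue WT, green KI). On chow r was -0.73 in WT and -0.58 in KI mice, and neither passed adjustment. The 2 KI mice at 1.09 CPM of Arntl (11 counts each) have 401 and 599 CPM of Dbp. Without these 2, r in chow-fed KI mice was 0.67 over 4 mice.

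Within each group Arntl and Dbp were correlated across its mice, as log2 CPM, in 6 tests. This pair too was picked with its values known, so the p-values below are descriptive. Pearson's r was negative in all 6 groups. It was -0.41 in WT and -0.66 in KI mice on HFD, -0.73 and -0.58 on chow, and -0.26 and -0.85 in BAT. The 2-sided exact permutation p was 0.33, 0.0818, 0.0615, 0.236, 0.5 and 0.0472 in that order, and none passed after adjustment over the 6 groups, where the lowest adjusted p was 0.164. Spearman's rho ran from -0.71 in chow-fed WT mice to -0.26 in WT BAT, with exact permutation p from 0.0881 to 0.658 and adjusted p from 0.427 to 0.658. Without the 2 mice farthest from the median of Arntl, r was -0.41, -0.63, -0.74, 0.67, -0.77 and -0.06, over 6, 6, 5, 4, 4 and 4 mice. In KI mice on chow r changed sign, in KI BAT it weakened and in WT BAT it strengthened. With 4 mice left in each of these groups r is imprecise, so these changes show little.

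Over all 41 libraries, after each group's mean was subtracted, some of the clock genes ran together or against each other. This is a description, since inguinal and BAT libraries may share mice and all genes of a library share its depth. Per3 and Dbp had the highest r of all pairs, 0.87, followed by Nr1d2 and Dbp (0.57) and by Per1 and Per3, and Arntl and Clock (0.54 each). Arntl ran against Dbp (-0.60) and against Per3 (-0.59), and its r with Nr1d1 was -0.19. Cry1 had an r of 0.42 to Per2, -0.46 to Nr1d1 and 0.04 to Arntl, the last being -0.17 over the 29 inguinal and 0.59 over the 12 BAT libraries. 

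**Figure D5:**
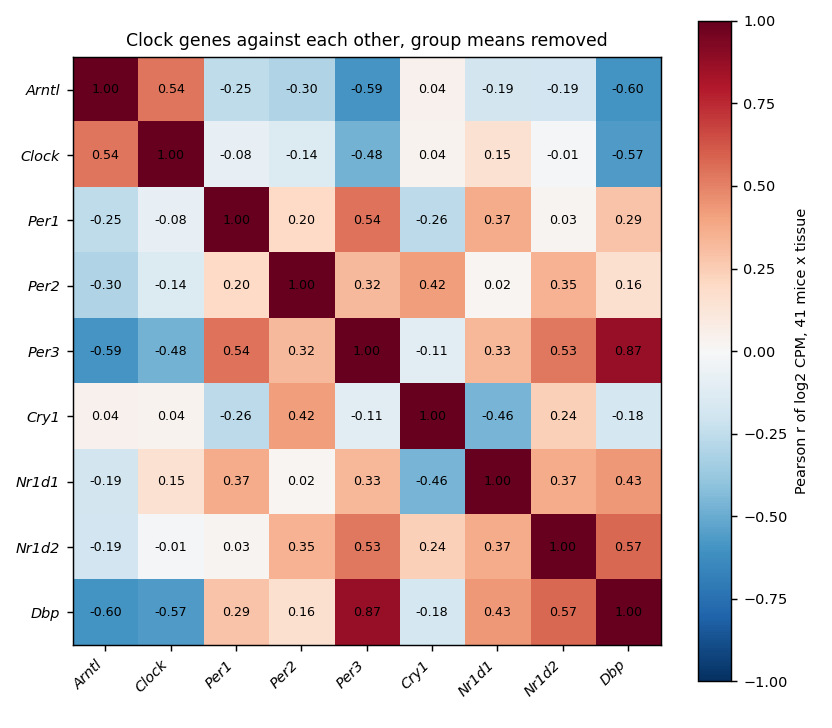
Pearson r between the log2 CPM of 9 clock genes over 41 libraries after each group's mean was subtracted (red positive, blue negative, scale from -1 to 1). Npas2 is left out because it did not pass the count filter in BAT. The block of Per3, Nr1d2 and Dbp is red, and Arntl and Clock are blue against Per3 and Dbp.

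Among the genes outside the 10 that passed the count filter in all 3 tables, those most like Arntl over the 41 libraries were Flvcr1 (r = 0.63), Ibtk (0.62), Amer1, Pde7a and Diaph1 (0.60 each). The genes most opposed to it were Plekhg3 (-0.65), Gm12758 (-0.63), Cbr1 (-0.60), Cadps2 (-0.57) and Rsph3a (-0.57). For Diaph1 and Gm12758 this came from inguinal WAT (r = 0.72 and -0.74 over 29 libraries), while over the 12 BAT libraries r was -0.16 and -0.17. Arntl's own partner Clock ranked 16 of the 13034 genes compared, Arntl itself being the first. Dbp and Per3 lay at the other end, at ranks 13031 and 13030.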

How the data were processed

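Total RNA of adipose tissue (RNA integrity number at least 8) was made into TruSeq libraries and sequenced as paired ends. Per the labels, cutadapt trimming, STAR alignment to GRCm38 and featureCounts counting per gene were run by the authors. Versions, annotation release and strand setting are not given in the sources used here. The deposited values are raw counts in 3 tables of 41 columns, 1 per mouse and tissue, from 57 GEO samples. Inguinal libraries on HFD were sequenced as 2 technical replicates per mouse and have 1 column per mouse, which was used as 1 replicate. Of 54838 entries, 1884 without a length or count were left out and entries of the same symbol, which were identical, were kept once, leaving 52853 genes.

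Here counts were scaled by TMM, filtered with filterByExpr and tested with edgeR's quasi-likelihood test (edgeR 4.0.16, R 4.3.3) over all genes that passed, with Benjamini-Hochberg adjustment and a threshold of 0.01. Genotypes were compared within each table, and diets and depots in joint fits of 4 groups with interaction terms. Log2 CPM used a prior count of 2. Correlations used exact permutation tests (scipy 1.17.1). The steps were tested on simulated data. The alternatives tried were RLE size factors, DESeq2 1.42.0, testing without a filter, at least 10 counts in every mouse, mitochondrial genes left out, 1 fit of all 6 groups, a replicate block, a threshold of 0.05, each mouse left out, and, chosen after seeing the data, 5 libraries with lymph node or muscle transcripts left out (sums over 100 CPM for 6 lymphocyte or 10000 CPM for 5 muscle markers). The 10 clock genes and all lists were chosen with earlier results of these data known. Apart from the 10 genes, the text names called list members (at most 5 per list and comparison), the 5 genes most and least like Arntl, Mfn2, overlapping genes, and genes named beside a result after their values were seen. For 1 called list member the values are not reported here. Depth was 8042591 to 25680411 counts per library. The p-values set a difference against the spread between the mice of this study and do not cover other cohorts.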

Additional observations from a re-analysis of the deposited data

Results flagged for a closer look

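Among 60 sets of values (10 genes in 6 groups), 5 held a mouse set apart from the rest of its group by Dixon's test at the 95% level, which chance alone gives in about 1 of 20 sets. Per1 in KI mouse 2 on HFD had 113.9 CPM against 172 to 224.5 CPM in the other 7 mice, and the same library had the highest lymphocyte marker sum, 533.5 CPM. Dbp in WT mouse 2 on HFD had 75.26 CPM against 122 to 161 CPM, in a library with a lymphocyte sum of 376 CPM. Per2 in WT mouse 7 on HFD had 31.26 CPM against 58.9 to 90.4 CPM. Nr1d2 in KI mouse 5 on HFD had 65.24 CPM against 84.2 to 97.0 CPM, and this mouse was also the lowest KI mouse for Nr1d1 and Dbp. In BAT, Per1 in WT mouse 6 had 214.2 CPM against 133 to 156 CPM. The part of other tissue in these values was not tested.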

How the results depend on the processing

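In inguinal WAT on HFD the count of clock genes called went from 1 to 2 (Per1 and Nr1d1) without the libraries with lymph node transcripts and to 3 (Dbp too) at an adjusted p below 0.05. On chow it went from 0 to 1 in 1 fit of all 6 groups (Dbp) and at 0.05 (Npas2). For diet in WT mice it went from 1 to 0 without the filter or without the libraries with other tissue, and to 5 at 0.05, where diet in KI mice also gave 5 and the depot interaction 1 (Per3). With 1 mouse left out the counts ran from 1 to 2 on HFD (2 without KI mouse 2), from 0 to 2 for diet in WT mice (2, with Per2, without HFD WT mouse 7), from 1 to 3 for diet in KI mice (1 without chow-fed KI mouse 1), from 2 to 3 for depot in WT mice, from 4 to 5 for depot in KI mice, and stayed at 0 elsewhere. Other alternatives moved no count by over 1.5 times, and the cause of these moves was not tested. Over all genes, DESeq2 called 1107 against 479 on chow and 717 against 243 in BAT, and 1 fit of all 6 groups 1242 against 1886 on HFD, 1088 on chow and 835 in BAT. The diet interaction had 147 calls over all genes, 409 by DESeq2, 99 without the filter, 23 without the libraries with other tissue and 69 to 269 with 1 mouse left out, and BAT had 134 (without WT mouse 6) to 313, so the shares over all genes given beside these comparisons are not steady.

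Signs of several differences near 0 turned. In BAT between genotypes Clock was 0.0085 by DESeq2, 0.00062 with RLE, 0.0024 without the filter and 0.036 in 1 fit of all groups, where Cry1 was 0.011, and Nr1d1 was -0.0023 without mitochondrial genes. The diet interaction of Per2 was -0.0068, -0.0069, -0.023, -0.0083, -0.017 and -0.043 with DESeq2, RLE, at least 10 counts, no mitochondrial genes, 1 fit and no other tissue. With at least 10 counts the depot difference of Per2 in WT mice was -0.022 and that of Clock in KI mice -0.051 (-0.0028 without the filter). The depot interaction of Nr1d2 was -0.010 without the filter and -0.0069 without mitochondrial genes. With 1 mouse left out, between genotypes on HFD Npas2 ran from -0.073 to 0.27, on chow Per1 ran from -0.067 to 0.15, in BAT Clock ran from -0.12 to 0.069 and Cry1 ran from -0.12 to 0.051 and Nr1d1 ran from -0.062 to 0.10 and Nr1d2 ran from -0.053 to 0.10 and Per1 ran from -0.041 to 0.20, for diet in WT mice Arntl ran from -0.028 to 0.37 and Per1 ran from -0.052 to 0.18, for diet in KI mice Nr1d1 ran from -0.18 to 0.049, for the diet interaction Arntl ran from -0.12 to 0.44 and Per2 ran from -0.093 to 0.13, for depot in WT mice Clock ran from -0.12 to 0.013 and Nr1d1 ran from -0.093 to 0.024 and Per2 ran from -0.021 to 0.26, for depot in KI mice Clock ran from -0.072 to 0.12, for the depot interaction Arntl ran from -0.13 to 0.29 and Clock ran from -0.012 to 0.18 and Nr1d2 ran from -0.067 to 0.070. The correlation of Arntl with Dbp ran from -0.78 to 0.11 in WT BAT and stayed negative in the other 5 groups.

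Mice of both genotypes share replicate numbers, and the sources do not say whether these pair them. Correlations of deviations from the group means exceeded 0.1 in 2 of 8, 2 of 6 and 3 of 6 same-numbered pairs on HFD, on chow and in BAT. The highest was 0.65, on HFD. In the same order 1 of 8, 1 of 6 and 3 of 6 mice correlated best with their own number. Median correlations were -0.16, -0.05 and 0.10 for same-numbered pairs against 0.04, 0.03 and -0.04 for other pairs. Pairing by number in BAT was therefore not settled. With the replicate block 1, 0 and 0 clock genes were called, and Nr1d1 and Nr1d2 in BAT were -0.0010 and -0.0028. Over all genes the block gave 1545, 101 and 363 calls, against 1886, 479 and 243 in the main fits. Depth limits Npas2 and Arntl most, with under 15 counts in some libraries on chow and in BAT.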
